A study of Mus musculus with 3 samples.

Results

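The Tfap2 genes and neural crest factors described here are 8 genes, Tfap2a, Tfap2b, Tfap2c, Snai1, Snai2, Twist1, Erbb3 and Crabp1. They were found by gene name among the non-control probes of 3 arrays of 2 colours. They are 8 of 27670 gene names, and held 15 of the 41174 probes. Of these, 9 carried the present symbol and 6 carried older names of the Tfap2 genes (Tcfap2a, Tcfap2b and Tcfap2c).

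Total RNA came from ectoderm of the mouse otic placode, microdissected from embryos of 4 to 8 somites. The placode is the thickened patch of head ectoderm from which the inner ear forms. Double heterozygotes (Fgf3+/-;Fgf10+/-) were compared with double nulls (Fgf3-/-;Fgf10-/-), so both groups carried null alleles of both genes and no wild type entered the comparison. Each group had 3 biological pools of 10 placodes, and each array carried 1 pool of each group. The double heterozygote was in the Cy3 channel and the double null in the Cy5 channel on all 3 arrays, so a dye effect of a probe and the genotype cannot be told apart.

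Tfap2a, Tfap2b and Tfap2c encode AP-2 transcription factors, which bind DNA as dimers and act in surface ectoderm, at the neural plate border and in neural crest. The neural crest arises at that border, beside the placodes, and its cells leave the neural epithelium and migrate. Snai1 and Snai2 encode zinc finger repressors of epithelial genes, and Twist1 encodes a basic helix-loop-helix factor of cranial mesenchyme. Erbb3 encodes a receptor for neuregulins carried by migrating crest and its glial descendants, and Crabp1 encodes a cytoplasmic retinoic acid binding protein found in hindbrain and crest.

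None of the 8 genes differed between the genotypes past the threshold of an adjusted p of 0.05. The test was limma's moderated test of the mean log2 ratio of double null over double heterozygote, with Benjamini-Hochberg adjustment over 25515 tested probes. The 10 tested member probes had a lowest adjusted p of 0.144, and 0 of them were called, against 1.5% of all tested probes. That share includes very bright probes, whose median log2 ratio was 0.09 at mean log2 intensities of 15 to 16 and 0.46 over 16. All 10 member probes lay below 15, and a fit on probes up to 15 called 21 of 24758. An unadjusted p under 0.05 was reached by 2 of the 10, those of Snai2 and Erbb3, against 20.2% of all tested probes. Snai2 read 1.33-fold higher in double nulls and the 1 tested Erbb3 probe 0.86-fold, and the other 6 genes had intervals that included no difference. The Erbb3 value is that of this probe, since the other Erbb3 probes were not well above background. The median log2 ratio of the members' brightest probes was -0.03, beside 0.01 over all 16850 genes. Levels in the 2 channels did not overlap for 2 of the 10 probes, higher for Snai2 and lower for Erbb3, where 16.4% of all tested probes did not overlap (9.48% higher and 6.9% lower). The ratio kept one sign on all 3 arrays for 5 of the 10 probes, 2 below 0 and 3 above, against 43.7% of all tested probes (19.2% below and 24.5% above). The calls rest on loess normalization: with each array centred on its median instead, 9 of the 10 member probes were called (2 lower and 7 higher), as were 19485 of the 25515 tested probes. That setting moved the median of all tested probes to 0.33, and relative to it Snai2 stood at 0.46 and the tested Erbb3 probe at -0.09. Farthest from it were the dimmer tested probes of Tfap2a and Tfap2b, at -0.55 and -0.60.

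A probe was tested if it was well above background in one channel on all 3 arrays, which 10 of the 15 member probes were. Each of the 8 genes had at least 1 such probe. The other 5 probes, 1 of Tfap2b and 4 of Erbb3, were not well above background in either channel on any array. Values below are log2 normalized levels in arrays 1, 2 and 3 in that order, and log2 ratios of double null over double heterozygote, with moderated standard errors and n = 3 arrays. A level is comparable between pools for 1 probe, not between probes.

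The probe sequences of Erbb3 are shown first because this gene's probes disagreed on whether any signal was present. They are given 5′ to 3′ in the order of the minus strand, with positions on mouse build mm7. Capitals mark the 40 bases that A_51_P488243 and A_51_P342050 share, so those 2 probes are not separate measurements. For A_52_P432949 the first 30 of its 60 bases are given.
A_52_P133607: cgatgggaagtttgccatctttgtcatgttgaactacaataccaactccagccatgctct
A_51_P488243: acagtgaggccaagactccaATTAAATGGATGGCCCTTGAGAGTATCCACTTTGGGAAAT
A_51_P342050: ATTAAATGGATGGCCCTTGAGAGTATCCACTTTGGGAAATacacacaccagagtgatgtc
A_51_P414813: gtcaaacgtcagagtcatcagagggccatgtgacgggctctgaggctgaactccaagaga
A_52_P432949: gttgcagatacacactcattacaagccaat
A_52_P133607 lies at chr10:128086809-128086868 and A_51_P488243 at chr10:128073927-128074215, where 60 bases of probe span 289 bases of genome. A_51_P342050 lies at chr10:128073907-128073966, A_51_P414813 at chr10:128071993-128072052 and A_52_P432949 at chr10:128069461-128069520. Only the last of these was well above background, and it was so in both channels on all 3 arrays.

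Tfap2a, an early regulator of crest and of ectoderm at the neural plate border, was measured by 2 probes that share no more than 5 bases. Probe A_52_P205831 (chr13:40156450-40156509) read 9.57, 9.77 and 9.37 in double heterozygotes and 9.57, 9.84 and 9.39 in double nulls. The pools of an array lay close together while the arrays differed from one another, and the groups overlapped. The array ratios were 0.00, 0.07 and 0.02, with a mean of 0.03 ± 0.05 (SE, n = 3), a fold of 1.02 with a 95% interval of 0.941 to 1.11 and a limma adjusted p of 0.762.

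The second probe of Tfap2a, A_51_P443062, is shown because its 60 bases span 3221 bases of genome (chr13:40164742-40167962, minus strand), so its bases are not contiguous there.
A_51_P443062: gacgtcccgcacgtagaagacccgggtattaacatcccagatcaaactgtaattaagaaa
It read 6.76, 6.75 and 6.79 in double heterozygotes and 6.78, 6.81 and 6.83 in double nulls, and it was well above background on 2 of 3 arrays in the double heterozygote channel. Its mean ratio was 0.04 ± 0.05 (SE, n = 3), with a fold of 1.03, an interval of 0.949 to 1.11 and a limma adjusted p of 0.672. In the fit used here, the 2 probes of Tfap2a thus gave nearly the same ratio. It was positive on 3 of 3 arrays but smaller than its standard error at both. With the scanner's processed signals, A_51_P443062 had ratios of 0.23, 0.07 and -0.07 on arrays 1, 2 and 3. A_52_P205831 had -0.03, 0.08 and 0.004, so neither probe was positive on all 3 arrays there. With a smaller offset of 16 in background correction, the mean ratios of the 2 probes were 0.06 and 0.02 in that order.

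Tfap2b, a paralogue of Tfap2a with overlapping roles in crest, was measured by 2 tested probes. Probe A_51_P248345 (chr1:19424657-19424716) read 8.08, 7.83 and 7.85 in double heterozygotes and 8.08, 7.88 and 7.55 in double nulls. Pairs on arrays 1 and 2 were alike, and the double null pool of array 3 was the lowest of the 6. The mean ratio was -0.09 ± 0.08 (SE, n = 3), with a fold of 0.943, an interval of 0.831 to 1.07 and a limma adjusted p of 0.566. Without array 3 the mean ratio was 0.02, so that array decided its sign.

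Probe A_52_P352771 of Tfap2b (chr1:19426805-19426864) read 6.64, 6.85 and 6.79 in double heterozygotes and 6.78, 6.86 and 6.66 in double nulls. Its ratios of 0.14, 0.00 and -0.13 ran in opposite directions on arrays 1 and 3, and the mean was 0.00 ± 0.06 (SE, n = 3, limma adjusted p = 0.987). The third Tfap2b probe, A_51_P248344 (chr1:19424697-19424756), shares 20 bases with A_51_P248345 and was not tested. Its ratios, near background, were -0.05, 0.12 and 0.01.

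Tfap2c, known for its part in surface ectoderm and trophoblast as well as at the neural plate border, had 1 probe, A_51_P418820 (chr2:172351014-172351073). It read 11.83, 11.82 and 11.95 in double heterozygotes and 11.82, 11.74 and 11.91 in double nulls. Each double null pool was slightly below its partner, but the groups overlapped. The mean ratio was -0.05 ± 0.05 (SE, n = 3), with a fold of 0.968, an interval of 0.892 to 1.05 and a limma adjusted p of 0.631. Only 11.3% of tested probes had a smaller range over the 3 arrays than Tfap2c, and for the brighter Tfap2a probe this share was 11%.

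**Figure D1:**
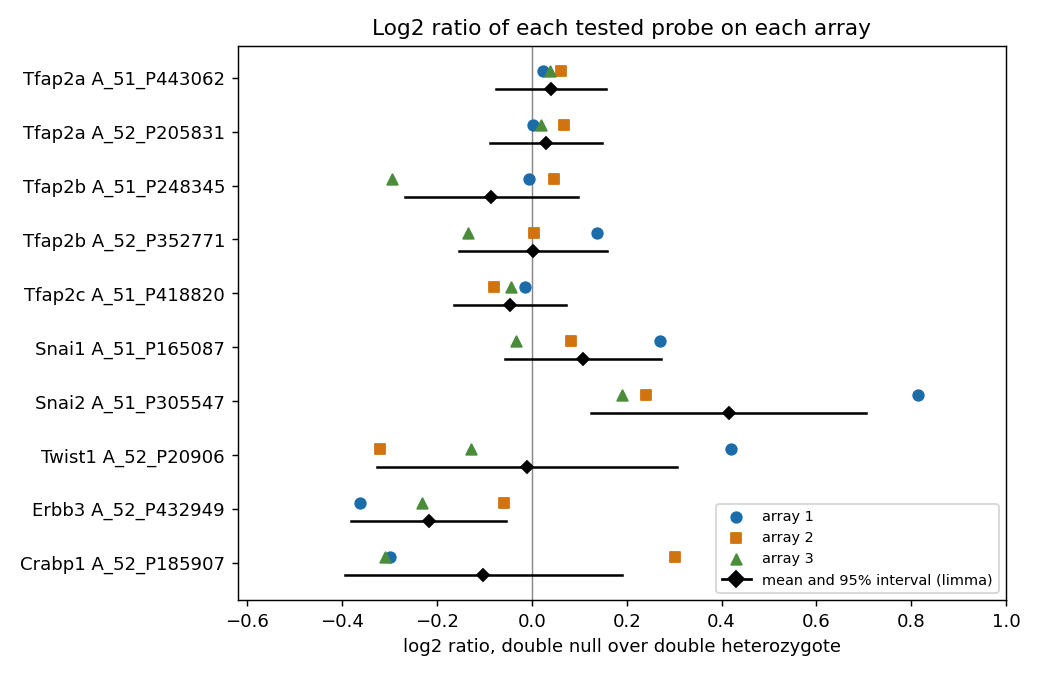
Log2 ratio of double null over double heterozygote (x axis) for each of the 10 tested probes of the 8 genes (y axis). Coloured points are the 3 arrays, and black diamonds with bars are means with 95% intervals from limma. The bars of Snai2 and Erbb3 do not reach 0, the points of Snai2 run from 0.19 to 0.81, and those of Twist1 and Crabp1 lie on both sides of 0.

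Snai1, the repressor that starts the epithelial to mesenchymal transition in gastrulation, was read by A_51_P165087 (chr2:167283227-167283286). The probe read 9.38, 9.64 and 9.22 in double heterozygotes and 9.65, 9.72 and 9.19 in double nulls. The array 3 pools were the lowest of each group, and the groups overlapped. The array ratios of 0.27, 0.08 and -0.03 gave a mean of 0.11 ± 0.07 (SE, n = 3), a fold of 1.08 with an interval of 0.961 to 1.21 and a limma adjusted p of 0.422. Without array 1 the mean was 0.03 and without array 3 it was 0.18, so its size rested on array 1.

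Snai2, the family member most used as a marker of crest cells, had the largest positive ratio of the 10 probes. Probe A_51_P305547 (chr16:14250104-14250163) read 9.87, 9.94 and 9.90 in double heterozygotes and 10.69, 10.18 and 10.09 in double nulls. All 3 double null pools were above all 3 double heterozygote pools, and the double null pool of array 1 stood apart from the other two. The array ratios were 0.81, 0.24 and 0.19, with a mean of 0.41 ± 0.12 (SE, n = 3) and a fold of 1.33 with an interval of 1.09 to 1.63. This ratio was higher than that of 98.9% of tested probes, but its limma adjusted p was 0.144 (unadjusted p = 0.0122 from the same limma fit).

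The spread of Snai2 came from 1 group. The SD over pools was 0.03 in double heterozygotes and 0.32 in double nulls, where the median over all tested probes was 0.10 and 0.09. Without array 1, whose ratio was the highest, the mean was 0.22, and the ratio was positive on 3 of 3 arrays.

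Twist1, a marker of head mesenchyme of both mesodermal and crest origin, had the widest range over arrays of the 8 genes, 0.74, which was wider than that of 98.8% of tested probes. Probe A_52_P20906 (chr12:31805579-31805638) read 10.49, 10.52 and 10.40 in double heterozygotes and 10.91, 10.20 and 10.27 in double nulls. The double null pool of array 1 was the highest of the 6 and the other double null pools were the lowest 2. The array ratios of 0.42, -0.32 and -0.13 gave a mean of -0.01 ± 0.13 (SE, n = 3), a fold of 0.994 with an interval of 0.798 to 1.24 and a limma adjusted p of 0.978. The sign of the mean turned without array 2 (0.15) and without array 3 (0.05).

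As with Snai2, double heterozygote pools agreed closely for Twist1 (SD 0.06) and double null pools did not (SD 0.39). Among 130 tested genes of the fixed lists, the 3 whose array ratios lay nearest to those of Twist1 were Tcf15, Zic2 and Foxa2. Tcf15, a factor of paraxial mesoderm, had ratios of 0.29, -0.21 and 0.00, a root mean square difference of 0.12 over 3 arrays. Zic2, a zinc finger factor of the neural plate and its border, had 0.25, -0.22 and 0.05 (difference 0.15), and Foxa2, a factor of endoderm and floor plate, 0.17, -0.25 and -0.20 (difference 0.15).

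Markers of blood and endothelium had their highest median ratio on array 1, where Snai2 and Twist1 had theirs. This list had 9 of 12 genes tested. Hbb-y, Gata1 and Tie1 were above background on some arrays but not on all 3 in either channel, and the ratios of the globin Hbb-y were 0.52, -0.03 and 1.60. All 9 had a mean ratio above 0, and 0 passed the adjusted threshold, against 1.91% of all genes. Their median ratio was 1.16, -0.02 and 0.27 on arrays 1, 2 and 3. Their summed linear level ran from 2400 to 3170 in double heterozygote pools and was 6170, 2150 and 9160 in double null pools. The endothelial genes Cdh5 (1.45, 0.42 and 0.14) and Emcn (1.58, 0.18 and 0.27) were highest on array 1, as were Snai2 and Twist1, and were chosen after their values were seen. By contrast, the embryonic globin Hbb-bh1 (1.43, -0.51 and 2.69) was highest on array 3. Kdr, an endothelial receptor, had ratios of 1.16, -0.26 and 0.18.

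The head mesoderm list had 12 of 15 genes tested (Mesp1 was not above background on any array, Tcf21 was so on 1 array in Cy3 and 2 in Cy5, and Cyp26c1 had no probe of that name). The untested Tcf21 had ratios of 1.08, 0.03 and 0.83. Of the 12, 5 were below 0 and 7 above, and 0 were called, against 1.91% of all genes. Its median ratio was 0.09, -0.04 and 0.02 on arrays 1, 2 and 3, and its summed level ran from 35200 to 40300 in double heterozygotes and from 33100 to 40000 in double nulls. Among its brightest genes, Prrx2 had a mean ratio of -0.02 and Tbx1 of -0.18 (limma adjusted p = 0.821 and 0.135, n = 3). Alx1, chosen after its values were seen, was nearest to the threshold in this list at 0.29 (limma adjusted p = 0.0644, n = 3). An unadjusted limma p under 0.05 was reached by 5 of the 12, in both directions, against 21.9% of all genes. The part of cells other than placodal ectoderm in the Snai2 and Twist1 values was not tested. In pooled tissue, more cells of a type and more RNA per cell cannot be told apart.

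**Figure D2:**
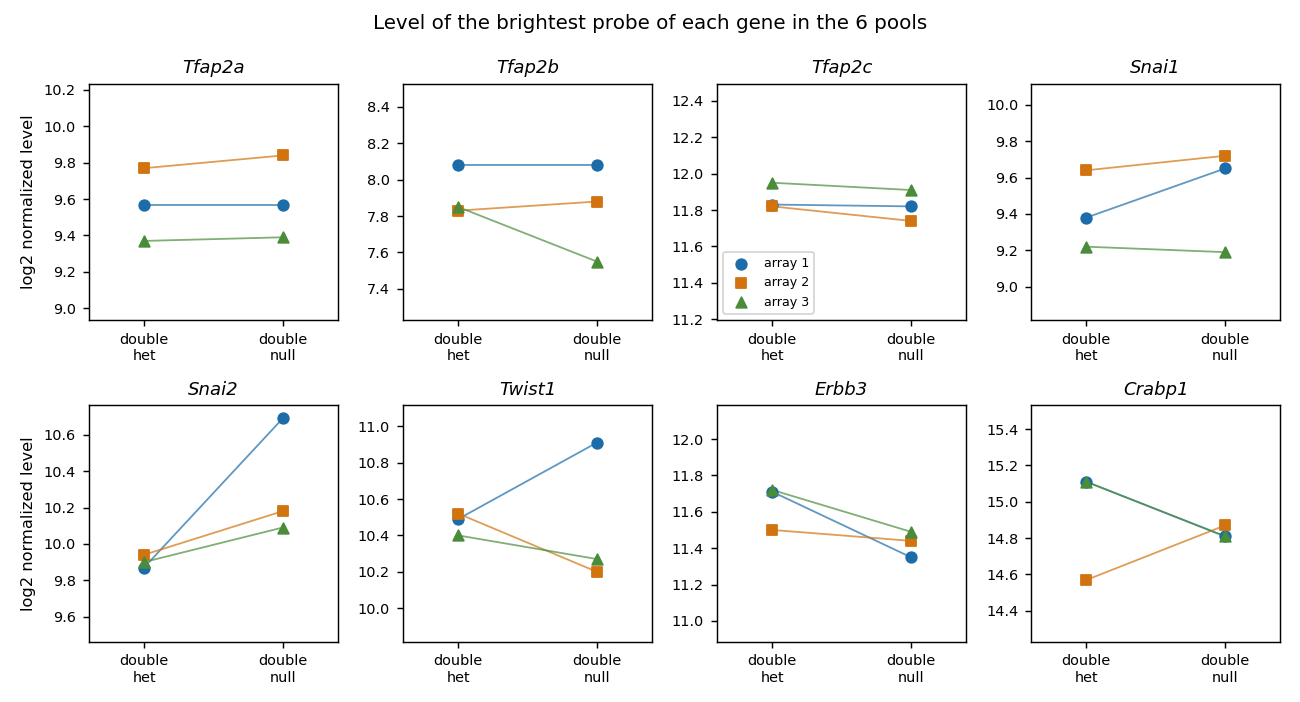
Log2 normalized level (y axis, with its own range in each panel) of the brightest probe of each gene in the 3 double heterozygote and 3 double null pools (x axis). Lines join the 2 pools of an array. Double heterozygote pools of Snai2 and Twist1 lie close together and their double null pools are spread, while for Crabp1 the double heterozygote pool of array 2 is the one that stands apart.

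Erbb3 had a negative ratio on each array at its 1 bright probe. A_52_P432949 read 11.71, 11.50 and 11.72 in double heterozygotes and 11.35, 11.44 and 11.49 in double nulls. The groups did not overlap, although the lowest double heterozygote (11.50) and the highest double null (11.49) nearly met. The array ratios of -0.36, -0.06 and -0.23 gave a mean of -0.22 ± 0.07 (SE, n = 3) and a fold of 0.86 with an interval of 0.768 to 0.964. The limma adjusted p was 0.164 (unadjusted p = 0.017 from the same limma fit), so the difference did not pass.

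The other 4 Erbb3 probes, whose sequences stand above, were not well above background in any of the 6 pools. Their ratios, taken near background, lay between -0.16 and 0.03 and carry no measure of the gene. The bright probe is listed in the files under a predicted transcript, and the 4 dim ones under the curated transcript of Erbb3. On mm7 the bright probe lies 2472 bases beyond the nearest other Erbb3 probe, in the direction of transcription, and 7597 bases from the nearest probe of Pa2g4, the neighbouring gene, which encodes a protein that binds ErbB3.

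The Pa2g4 probes gave ratios of opposite sign. A_51_P119923 had a mean of 0.19 (limma adjusted p = 0.128, n = 3) and A_52_P365896 of -0.13 (limma adjusted p = 0.295, n = 3), the latter with array ratios of -0.25, -0.15 and 0.01. A probe of the unnamed transcript cluster TC1429763, which overlaps the Erbb3 interval, had -0.03 (limma adjusted p = 0.748, n = 3). Which transcript A_52_P432949 reads was not analysed here, and its value is therefore given as that of the probe, not of Erbb3 as a whole.

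**Figure D3:**
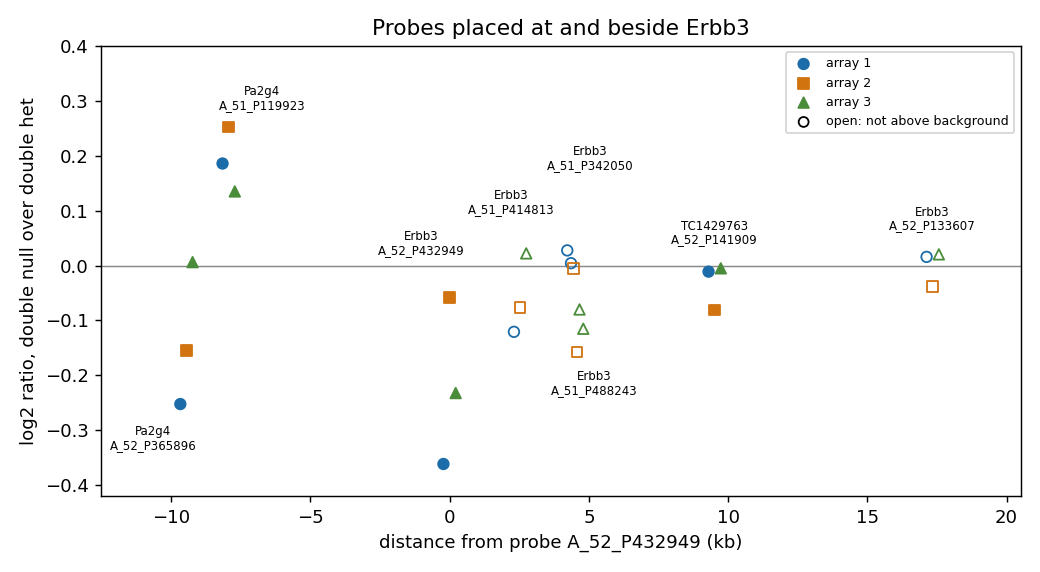
Log2 ratio of double null over double heterozygote on each array (y axis) for the 5 Erbb3 probes, 2 Pa2g4 probes and 1 probe of an unnamed cluster, by distance from the bright Erbb3 probe in kb (x axis). Open symbols are probes not well above background on any array. The bright probe is below 0 on 3 of 3 arrays, and the 4 open Erbb3 probes scatter between -0.16 and 0.03.

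Crabp1 was read by A_52_P185907 (chr9:54797711-54797770) at 15.11, 14.57 and 15.11 in double heterozygotes and 14.81, 14.87 and 14.81 in double nulls. The double null pools were nearly equal (SD 0.03), the double heterozygote pool of array 2 was the lowest of the 6 and the other double heterozygote pools were the highest 2. The array ratios of -0.30, 0.30 and -0.31 gave a mean of -0.10 ± 0.12 (SE, n = 3), a fold of 0.932 with an interval of 0.761 to 1.14 and a limma adjusted p of 0.672. Without array 3 the mean ratio was 0.00, and without array 2 it was -0.30. The array range of Crabp1 was wider than that of 97.8% of tested probes, while 65.1% had a smaller absolute mean ratio.

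Hindbrain markers had their lowest double heterozygote sum in the same pool. So did the otic placode list (37000, against 38900 and 41100) and the surface ectoderm list (99200, against 106000 and 110000). These sums weigh bright genes most, in surface ectoderm Krt18 and Krt8. Each list was also read by the median deviation of its genes from their own means over the double heterozygote pools. On arrays 1, 2 and 3 this was 0.09, -0.19 and 0.00 for hindbrain and 0.06, -0.15 and 0.09 for otic placode. For surface ectoderm it was -0.06, -0.07 and 0.12, so arrays 1 and 2 were alike. The hindbrain list (12 of 12 tested) summed to 102000, 87600 and 109000 in double heterozygotes and to 91400, 84000 and 87400 in double nulls. Of its genes, 11 were below 0, the median ratio was -0.13 and 0 were called, against 1.91% of all genes. Its brightest genes were Egr2, a factor of rhombomeres beside the placode (-0.31, limma adjusted p = 0.0834, n = 3), and Hoxb2 (-0.20, limma adjusted p = 0.286, n = 3). The part of these tissues in the Crabp1 values was not tested.

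The families and partners of the 8 genes, and the other genes of the neural plate border and crest, were described by 6 lists. They named 73 other genes, of which 60 were tested. Of these, 1 was lower, 0 were higher, 32 had a mean below 0 and the median ratio was -0.02. Over all genes by their brightest probe, 0.344% were lower and 1.57% higher, with probes of mean log2 intensity over 15 included.

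Other AP-2 genes and cofactors had 6 of 7 genes tested (Tfap2d was not above background), 3 below 0 and 3 above, with a median of -0.05. Its brightest genes were Tfap2e, a further AP-2 factor (-0.14, limma adjusted p = 0.364, n = 3), and Kctd15, which binds and inhibits AP-2 (0.05, limma adjusted p = 0.682, n = 3). The other Tfap2e probe was not well above background on any array (ratios 0.08, 0.14 and 0.20), so -0.14 is the value of the bright probe only. Of the Snail and Twist relatives and partners, 8 of 11 were tested. Snai3 was not above background on any array, and Hand2 and Scrt1 were so on 1 or 2 arrays only. The 8 had a median of 0.01, with 3 below 0 and 5 above. Tcf12 and Tcf3 encode E proteins that pair with Twist1, and the ratios of their brightest probes were 0.09 and -0.10 (limma adjusted p = 0.478 and 0.38, n = 3). The other tested probes of Tcf12 were below 0, with means of -0.18, -0.01, -0.06 and -0.25 (lowest limma adjusted p = 0.173, n = 3). Hand1, chosen after its values were seen, was nearest to the threshold in this list at 0.31 (limma adjusted p = 0.0513, n = 3).

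Among ErbB receptors and ligands, 8 of 13 were tested, Areg, Btc, Ereg and Nrg3 were not above background and Nrg2 had no probe of that name. The 8 were split 4 and 4 around 0, with a median of 0.01. Erbb2, the partner that gives ErbB3 its kinase activity, read 0.02, 0.10 and 0.03 on the 3 arrays, a mean of 0.05 ± 0.05 (SE, n = 3, limma adjusted p = 0.615). Erbb4, another neuregulin receptor, had 0.04 (limma adjusted p = 0.703, n = 3). At its brightest probe, neither receptor had the negative ratio of the bright Erbb3 probe on any array. The other tested Erbb2 probe had -0.03, 0.06 and 0.05.

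Cellular retinoid binding proteins other than Crabp1 were tested for 5 of 7 genes (Rbp2 and Rbp3 were not above background), and all 5 had a mean above 0, with a median of 0.10. Crabp2, the paralogue of Crabp1, had -0.17, 0.24 and 0.07 and a mean of 0.05 ± 0.08 (SE, n = 3, limma adjusted p = 0.781). Crabp2 had the sign of Crabp1 on arrays 1 and 2 and the opposite sign on array 3.

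The neural plate border list had 13 of 13 genes tested, 6 below 0 and 7 above, with a median of 0.03. Mycn, a factor of proliferating progenitors, had a mean of 0.08 (limma adjusted p = 0.518, n = 3). The list's median was -0.13 on array 1 and 0.16 on array 2.

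Other neural crest specifiers and markers had 20 of 22 genes tested. Of these, 16 had a mean below 0 and 4 above, and the median was -0.07. Sox9, which acts in both crest and otic placode, was the 1 gene lower past the threshold. Its brightest probe had -0.93, -0.32 and -0.82 on the 3 arrays, a mean of -0.69 ± 0.11 (SE, n = 3) and a limma adjusted p of 0.0475. Its other 2 probes had means of -0.40 (limma adjusted p = 0.105, n = 3) and 0.00. Without array 1, and without array 3, 0 genes of these lists were called, and with the mean of each gene's probes 0 were lower and 1 was higher.

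The crest list lay lower on array 3 than on the other arrays. Its median ratio was 0.00, -0.01 and -0.27 on arrays 1, 2 and 3, and 10, 10 and 19 of its 20 genes were below 0, where 46.8%, 47.2% and 47.3% of all tested probes were. On array 3, Ets1 had -0.61, Foxd3 -0.56, Ngfr -0.56 and Sox10 -0.47, genes chosen after their values were seen that mark premigratory or migrating crest. Of the same list, Sox9 had -0.82, Nr2f2 -0.64 and Myc -0.49 on that array. The other tested probes of Ets1 had -0.07, -0.25 and -0.50 there. Ngfr was lower still on array 1, at -0.89, and its other tested probe had 0.04, 0.10 and 0.04 on arrays 1, 2 and 3. On array 3 the hindbrain list had a median of -0.23 and the otic placode list of -0.29, which were -0.20 and -0.43 on array 1. The blood and endothelium sum was highest in the double null pool of array 3, 9160. This sum weighs the bright globin Hbb-bh1 most, which was at 12.45 there. By median deviation from their own means over double null pools, that list's genes were instead highest on array 1. The values were 0.28, -0.53 and -0.02 on arrays 1, 2 and 3. The part of these tissues in the crest values was not tested. Of the 20 crest genes, 11 had their lowest double null level in the array 3 pool and 9 had their highest double heterozygote level there. Only 4 did both, and the shares over all genes were not analysed. The means of Foxd3 and Sox10 were -0.24 and -0.19 (limma adjusted p = 0.28 and 0.305, n = 3). Of the 8 genes described above, Tfap2b, Twist1, Erbb3, Crabp1, Tfap2c and Snai1 were also negative on array 3, and Tfap2a and Snai2 were not.

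**Figure D4:**
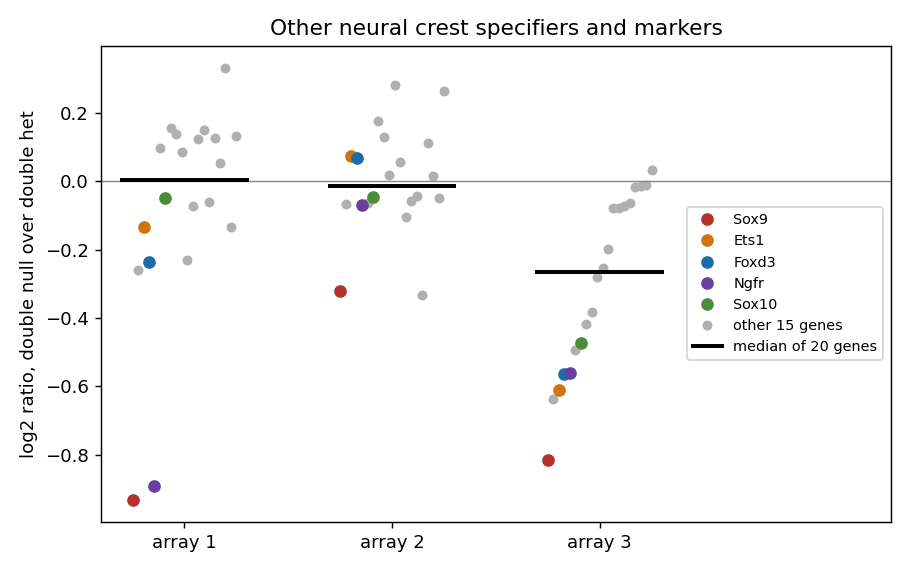
Log2 ratio of double null over double heterozygote (y axis) on each array (x axis) for the 20 tested genes of the crest list. Points are genes and black bars their median on that array, 0.00, -0.01 and -0.27, and 19 of 20 points lie below 0 on array 3.

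The labelled tissue was checked against its markers. The otic placode list had 14 of 17 genes tested (Pax2 was above background on 2 of 3 arrays in each channel, and Dlx6 and Foxi3 had no probe of that name), so placodal genes were present in both groups. Of these, 13 were below 0, the median was -0.27, beside 0.01 over all genes, and 1 was called, against 1.91% of all genes. This was Hmx2, an otic homeobox gene (-0.59, limma adjusted p = 0.0228, n = 3). Surface ectoderm had 11 of 12 tested and 10 below 0, with a median of -0.13 and 0 called. Its brightest genes, the keratins Krt18 and Krt8, had -0.04 and -0.16 (limma adjusted p = 0.795 and 0.351, n = 3). In the fit used here, the AP-2 ratios stood nearer to 0 than the median of either list, a difference that was not tested. Tfap2b was at -0.22 with the scanner's processed signals and with the deposited ratios, where the medians of the lists were not analysed. Endoderm had 7 of 9 tested, a median of -0.13 and 1 called, Sox17 (-0.54, limma adjusted p = 0.0155, n = 3).

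Of 43379 spots on an array, 26452 to 28258 passed the background criterion in Cy3 and 27284 to 29177 in Cy5. Precision was limited by having 3 arrays. The median SE was 0.07 for the 10 member probes and 0.06 over all tested probes, and a sign-flip permutation test of 1 probe on 3 arrays cannot go below an exact two-sided p of 0.25.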

How the data were processed

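The arrays were read with Agilent Feature Extraction 9.5.1.1, per the submitters' processing notes. Mean spot intensity and median background intensity of each channel, neither normalized, were taken from the files as deposited. These files also give a processed intensity and a log10 ratio (Cy5 to Cy3), made by the scanner software per the file headers. The log2 ratios that the authors deposited as a table of the series equalled the scanner's ratio within 2.01e-06. Positions of probes were copied from the files, whose headers name mm7 (NCBI35). Slide and scan session were shared by the 3 arrays, per the file headers.

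Background was corrected with normexp (offset 50) and ratios were normalized by loess (span 0.3, control spots at weight 0). Outlier-marked spots (143 to 175 per array) were left out and spots of a probe averaged. Channel levels were taken after Aquantile normalization. The mean ratio of a probe was tested by lmFit and eBayes (limma 3.58.1, R 4.3.3), with Benjamini-Hochberg adjustment over 25515 probes and 95% intervals. The fit was tested on simulated ratios. Since each array carries 1 pool of each genotype, the array is its own block.

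Probes were named through RefSeq records of GRCm38.p6, used for names only. Members were named with every probe. From each other list, genes past the threshold were named, or else the 2 of highest mean intensity, with the 3 genes nearest to the member of largest range. A few genes that met this rule are not reported here, and the counts include them. A gene of a list stands for its brightest tested probe. The members and lists were chosen with earlier results of these data known. Alternatives were other background treatments, normalizations, probe filters, probe rules, models, thresholds and source tables, and each array left out in turn.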

Additional observations from a re-analysis of the deposited data

How the results depend on the processing

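The count of 384 called probes was 199 with a normexp offset of 16, 233 with loess on probes above background at span 0.3 and 11 at span 0.1, and 21 for probes of mean log2 intensity up to 15. It was 185 with separate channels and no replicate block for the array, 993 with an intensity trend, 1082 at an adjusted p of 0.10 and 19485 with median centring. With limma on the scanner's processed signals it was 0 (4418 at an unadjusted p under 0.05), and with the authors' deposited ratios it was also 0 (4471). Leaving out each array gave 87 to 305. The share of calls that were higher was 80.7%, but 90.5% at offset 16, 93.5% with separate channels, 95.2% up to intensity 15, 100% (11 of 11) at span 0.1, 94.3% without array 3, 64% with the trend and 65.2% at 0.10.

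Of the 8 genes, 0 probes were called under 20 of 21 alternatives, and 9 were called with median centring. That setting moved the median of all tested probes to 0.33 and gave 0.36 for Tfap2a, 0.42 for Snai1 and 0.79 for Snai2. It turned the sign of Tfap2b (0.0025), Tfap2c (0.43), Twist1 (0.39), Erbb3 (0.24), Crabp1 (0.65), and the second probes of Tfap2a (-0.22) and Tfap2b (-0.27). Relative to that median, Tfap2a was at 0.03, Tfap2b at -0.33, Tfap2c at 0.10, Snai1 at 0.10, Twist1 at 0.06 and Crabp1 at 0.32. The second probes of Tfap2a and Tfap2b stood farthest from it, at -0.55 and -0.60. The second Tfap2b probe, at 0.00, turned to -0.0468 without background subtraction, -0.14 with processed signals and with the series table, -0.0204 and -0.0207 with loess on probes above background at spans 0.3 and 0.1, and -0.0008 with scaling between arrays. The second Tfap2a probe was at -0.0032 in the series table. The brighter Tfap2b probe was at -0.22 with processed signals and with the series table. Leaving out each array gave -0.22 to 0.15 for Twist1, -0.15 to 0.0201 for Tfap2b, -0.30 to 0.0011 for Crabp1 and -0.0652 to 0.0709 for the second Tfap2b probe. Outside median centring, Snai2 ran from 0.22 to 0.53 (limma adjusted p 0.0976 to 0.389) and Erbb3 from -0.30 to -0.15 (limma adjusted p 0.107 to 0.439), and the ends of both ranges of values are fits on 2 arrays.

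The 1 gene called in the other fixed lists became 0 with offset 16, without background subtraction, with processed signals, with loess on probes above background at either span, up to intensity 15, with array weights and with the series table. It became 2 with probes above background in both channels or with each gene's brightest probe adjusted over genes, 3 with the trend or at 0.10, 41 with median centring, and 0 to 2 with an array left out. With the mean of a gene's probes it was 1, higher, so the lower call of Sox9 was lost there too. The causes were not tested. Dye was not swapped, and signal over background kept 5 of 15 member probes out of the test.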
